A study of Mus musculus with 3 samples.

Results

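The genes described here build and hold together the junctions between cells: cadherins, catenins, desmosome genes, claudins with their tight junction partners, and connexins. They were chosen by name in the platform annotation, and 78 of the 19057 genes measured belonged to the set, read by 81 probe sets. They comprised 23 cadherins, 5 alpha- and delta-catenins, 11 desmosome genes (desmogleins, desmocollins, desmoplakin, plakoglobin and plakophilins), 25 tight junction genes (20 of them claudins, with Epcam counted here) and 14 connexins. All arrays came from R1, an established line of mouse embryonic stem (ES) cells from strain 129, with no treatment or genetic change named in the labels. The 3 biological repeats were each read from total RNA on a Mouse Gene 1.0 ST array of Affymetrix and form 1 group, so the values answer which junction genes gave signal and how evenly. The labels say neither how the cultures were kept nor whether feeder cells were used. Nothing says that the repeats came from separate cultures.

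Adherens junctions are held by cadherins, calcium-dependent adhesion proteins whose tails bind catenins, which in turn link them to actin. Desmosomes use a related set of cadherins and armadillo proteins to anchor keratin filaments. In tight junctions, claudins and occludin seal the space between cells and are tied to the cytoskeleton by zonula occludens scaffolds, while connexins form gap junction channels that pass ions and small molecules. Mouse ES cells are known to grow as compact colonies held together by E-cadherin, the product of Cdh1.

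Median intensity over all probe sets was 47.8, 46.7 and 46.8 in repeats 1, 2 and 3, and values are given below as log2 intensity. A gene was called above background when it exceeded a cutoff on each of the 3 arrays. The cutoff was the 95th percentile of the olfactory and vomeronasal receptors measured there (1182 genes), and lay at log2 4.72, 4.60 and 4.60. A higher cutoff came from 163 genes of other families expected to be silent (keratin-associated proteins, taste and trace amine receptors, beta-defensins and cornified envelope genes), whose 95th percentile lay at 6.15, 6.29 and 6.18. A gene below a cutoff was not shown to be silent. Probes differ in how brightly they report, so levels are compared between arrays and not between genes. The ES cell label was borne out by its markers: all 11 measured genes of the ES cell list, Pou5f1, Sox2 and Nanog among them, exceeded both cutoffs on all 3 arrays.

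Of the 78 junction genes, 43 (55.1%) were above background on all 3 arrays, 1 on a single array and 34 on none. Among the 17875 genes outside the receptor families the share was 71.6%. Above the higher cutoff on all 3 arrays lay 18 of the 78, against 42.3% of genes outside the receptor families. These 18 were Cdh1, Cdh3, Cdh11, Ctnna1, Ctnnd1, Jup, Dsp, Dsg2, Pkp2, Pkp4, Cldn4, Cldn12, Epcam, F11r, Tjp1, Gja1, Gjc1 and Gjd3, and they include genes of every junction type. Another 3, namely Cldn3, Cldn7 and Tjp3, exceeded it on some arrays. The remaining 22 of the 43 lay between the cutoffs on every array, 0.016 to 1.64 log2 units above the lower one. Of these 22, 9 exceeded the 99th percentile of the receptor genes on all 3 arrays, namely Cdh2, Cdh4, Cdh22, Cdh24, Cldn14, Cldn19, Ctnnd2, Gjb5 and Pkp3.

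**Figure D1:**
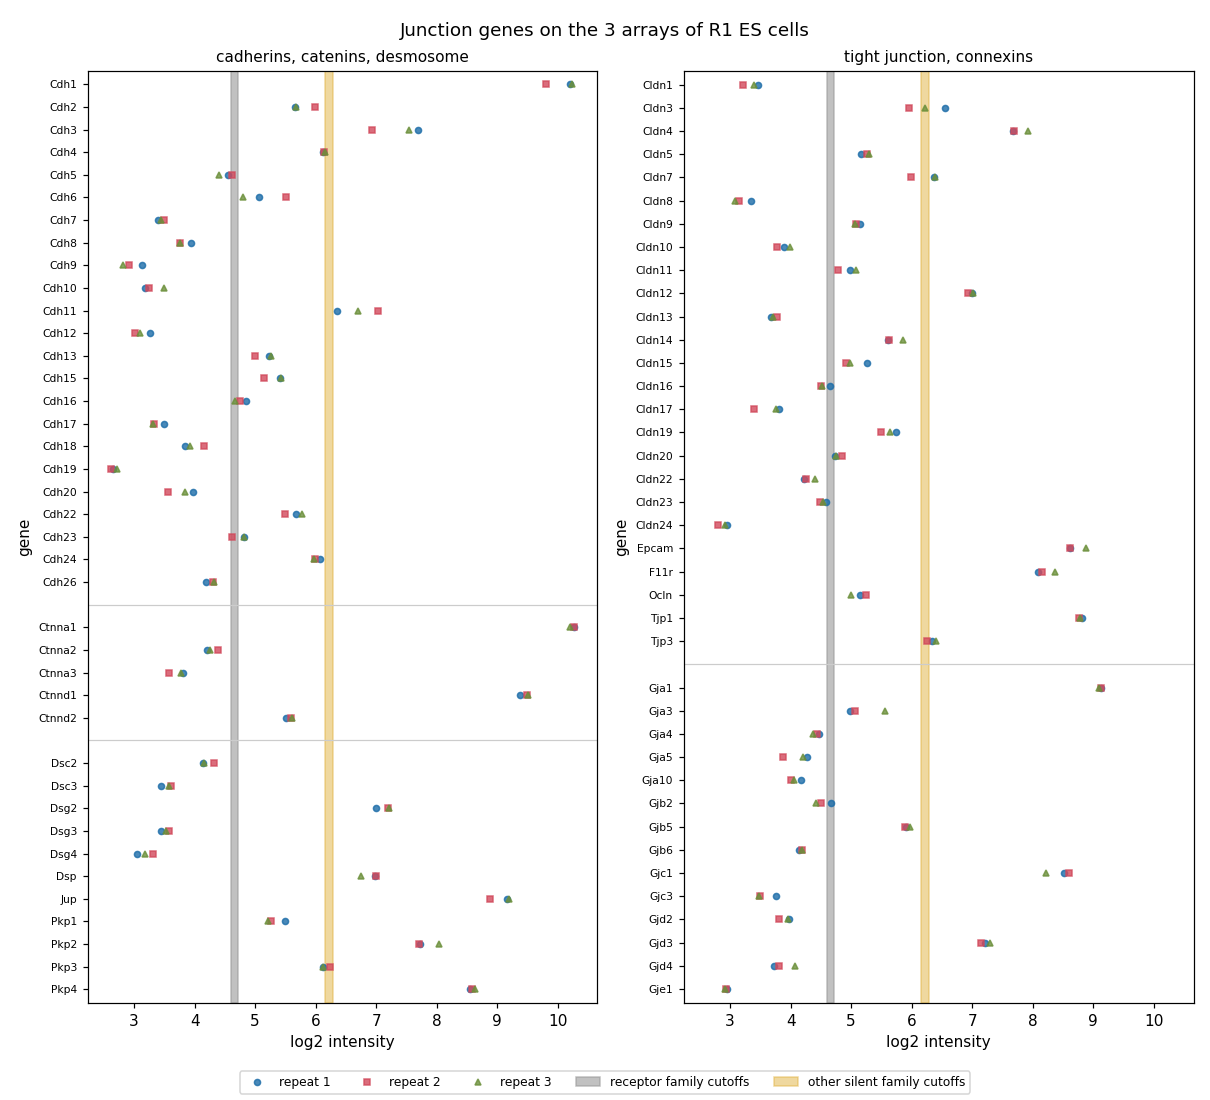
Each point is the log2 intensity (x axis) of a junction gene (y axis) on 1 of the 3 arrays, with marker and colour giving the repeat; the grey band spans the receptor family cutoffs of the arrays (4.60 to 4.72) and the yellow band those of the other silent families (6.15 to 6.29). Of the 78 genes, 43 lie right of the grey band's cutoffs on all 3 arrays and 18 right of the yellow ones.

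All 5 type I cadherins, the classical group that includes E-cadherin, were above background. Cdh1, which encodes E-cadherin, read 10.19, 9.81 and 10.24 in repeats 1, 2 and 3, 5.21 to 5.63 log2 units above the cutoff of each array, with repeat 2 lowest. Cdh3, which encodes P-cadherin and lies beside Cdh1 in the genome, read 7.68, 6.93 and 7.54. It too was lowest in repeat 2, and both genes exceeded the higher cutoff on all 3 arrays. Cdh2, the N-cadherin gene of neural and mesenchymal cells, read 5.66, 5.98 and 5.67, between the cutoffs and highest in repeat 2. Cdh4 (R-cadherin, 6.14 ± 0.015, SD, n = 3) and Cdh15 (M-cadherin of muscle, 5.33 ± 0.15) were also between the cutoffs on every array.

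The type II cadherins were mostly below background, and 4 of 13 exceeded it on all 3 arrays. Cdh11, a cadherin known from mesenchymal cells, read 6.36, 7.03 and 6.70 and was the only type II member above the higher cutoff on all 3 arrays. Repeat 2 was its highest and repeat 1 its lowest. Cdh6, named K-cadherin for the kidney, read 5.06, 5.51 and 4.79 and was again highest in repeat 2. Cdh22 (5.65 ± 0.14) and Cdh24 (6.01 ± 0.056) lay between the cutoffs. Both probe sets for Cdh24 were above background on all 3 arrays, and one of them exceeded the higher cutoff in repeat 1, at 6.20. Cdh5, the VE-cadherin gene of endothelium, read 4.55, 4.62 and 4.40 and passed the cutoff in repeat 2 only, by 0.020 log2 units. Cdh7, Cdh8, Cdh9, Cdh10, Cdh12, Cdh18, Cdh19 and Cdh20, several of them known from the nervous system, were below it on all arrays, with means of 2.66 (Cdh19) to 3.97 (Cdh18).

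Among the cadherins of other build, Cdh13 (5.16 ± 0.14), which is tethered to the membrane by a lipid anchor, was above background. Cdh23, a component of the hair cell tip link, and Cdh16, the kidney cadherin, both averaged 4.75 and exceeded the cutoff by as little as 0.022 and 0.063 log2 units on their weakest array. Cdh17 of the gut (3.38 ± 0.098) and Cdh26 (4.27 ± 0.065) were below background on all 3 arrays. None of the 5 reached the higher cutoff.

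Of the 5 alpha- and delta-catenins, 3 were above background and 2 exceeded the higher cutoff on all 3 arrays. Ctnna1, the alpha-catenin that couples cadherin complexes to actin, read 10.27, 10.27 and 10.21. Ctnnd1, the p120-catenin that keeps cadherins at the membrane, read 9.38, 9.49 and 9.50. Ctnna1 spanned 0.064 log2 units and Ctnnd1 0.12. For Ctnnd1 repeat 1 was lowest, at -0.11 from the mean of the others. The neural delta-catenin gene Ctnnd2 was between the cutoffs (5.57 ± 0.060), and the neural alpha-catenin gene Ctnna2 (4.28 ± 0.094) was below background. So was Ctnna3, the alpha-catenin gene of heart and testis, at 3.81, 3.58 and 3.77. Ctnnb1, the beta-catenin gene, is no member of the set and read 10.85, 10.85 and 10.75.

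In the desmosome group 7 of 11 genes gave signal, all of the plaque genes and a single desmosomal cadherin. Jup, or plakoglobin, which serves both desmosomes and adherens junctions, read 9.15, 8.88 and 9.20, with repeat 2 lowest. Dsp, the plakin that binds keratin, read 6.99, 7.004 and 6.74, with repeat 3 lowest. Among the plakophilins, Pkp4 read 8.55, 8.58 and 8.64 and Pkp2 7.73, 7.71 and 8.04, both above the higher cutoff throughout. Pkp1, best known from skin, read 5.48, 5.26 and 5.22, and Pkp3 averaged 6.16 ± 0.068; both lay between the cutoffs. Of the desmosomal cadherins, Dsg2 read 7.004, 7.20 and 7.21 and was above the higher cutoff on all 3 arrays. Dsc2, its usual desmocollin partner in simple epithelia, read 4.14, 4.31 and 4.16 and was below background on all 3 arrays. Dsc3 (3.54 ± 0.087), Dsg3 (3.52 ± 0.068) and Dsg4 (3.18 ± 0.13), known from skin and hair, were below it as well.

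Tight junction genes outside the claudin family all gave signal. Epcam, an adhesion protein of epithelia and ES cells that binds claudins, read 8.62, 8.62 and 8.88. F11r, which encodes the junctional adhesion molecule JAM-A, read 8.08, 8.15 and 8.36, and repeat 3 was highest for both. The scaffold gene Tjp1, for ZO-1, read 8.81, 8.77 and 8.79 and differed by 0.046 log2 units between its extremes. Tjp3, for ZO-3, read 6.33, 6.25 and 6.40, above the higher cutoff in repeats 1 and 3. Occludin (Ocln), the first membrane protein assigned to tight junctions, read 5.15, 5.24 and 4.99, between the cutoffs on all 3 arrays.

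Of 20 claudins 11 were above background, and 2 exceeded the higher cutoff on all 3 arrays. Cldn4, a barrier-forming claudin of epithelia, read 7.67, 7.69 and 7.92, and the widely expressed Cldn12 read 6.98 ± 0.041. Cldn3 read 6.55, 5.96 and 6.22 and Cldn7 6.37, 5.99 and 6.38; both are claudins of simple epithelia, and both were lowest in repeat 2, where they fell short of the higher cutoff. Cldn5, the claudin of endothelial tight junctions, read 5.16, 5.25 and 5.30 and lay between the cutoffs. So did Cldn9 (5.10 ± 0.043), Cldn11 (4.94 ± 0.15), Cldn14 (5.69 ± 0.14), Cldn15 (5.05 ± 0.19), Cldn19 (5.63 ± 0.13) and Cldn20 (4.78 ± 0.061). Cldn20 cleared the lower cutoff by 0.016 log2 units on its weakest array. Cldn1, the barrier claudin of the epidermis, was below background (3.35 ± 0.13), as were Cldn8, Cldn10, Cldn13, Cldn16, Cldn17, Cldn22, Cldn23 and Cldn24, with means of 2.89 (Cldn24) to 4.56 (Cldn16). The pairs of probe sets for Cldn10 and Cdh18 gave the same call within each gene.

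Of the gap junction genes, 5 of 14 (35.7%) were above background. Gja1, which encodes connexin 43, a channel known from ES cells and early embryos, read 9.13, 9.13 and 9.10. Its SD over the repeats was 0.016 log2 units. Gjc1, for connexin 45, read 8.51, 8.60 and 8.21, with repeat 3 lowest, and Gjd3 averaged 7.22 ± 0.074. These 3 connexins were above the higher cutoff on all arrays. Gjb5, a connexin known from trophoblast and skin, read 5.90, 5.89 and 5.98, and the lens connexin gene Gja3 read 4.98, 5.07 and 5.56, both between the cutoffs. Gjb2, for connexin 26, read 4.66, 4.50 and 4.42 and was below background on all 3 arrays. Gja4, Gja5, Gja10, Gjb6, Gjc3, Gjd2, Gjd4 and Gje1 were below it too, with means of 2.93 (Gje1) to 4.42 (Gja4).

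Calls of neighbouring junction genes were also set side by side. With 55.1% of the junction genes above background, mixed runs can arise without any link between position and call. How many to expect was not computed, so the counts are a description. With RefSeq's gene order and at most 1 protein-coding gene allowed in between, 32 of the 78 genes fell into 12 runs of neighbours. Cdh1 and Cdh3 formed the only run in which all members were above background, 4 runs had none above it on all 3 arrays, and 7 were mixed. In the mixed runs, Cldn3 and Cldn4 were above background and the nearby Cldn13 was not. Cdh2 was above and Dsc2 and Dsc3 were not, Cdh4 was above beside Cdh26, and Dsg2 was above beside Dsg3 and Dsg4. Cdh11 was above between Cdh8 and Cdh5, and Gja3 was above beside Gjb2 and Gjb6. The run of Cdh6, Cdh9, Cdh10, Cdh12 and Cdh18 had only Cdh6 above it.

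RefSeq start-site windows of 300 bases (build GRCm38.p6, from 250 bases before to 50 after the start) were at hand for 51 of the 78 genes. The median number of CpG dinucleotides per window was 12 for the 28 genes above background on all 3 arrays and 9 for the other 23, where a gene with several starts counts by its mean. For genes outside the receptor families the medians were 20 (10098 genes above background) and 5 (3748 genes not above it). CpG-poor starts thus occurred among junction genes above background, such as Gja1, with 8, and Gjb5 and Cldn20, with 3 each. Of these, Gjb5 and Cldn20 lay between the cutoffs, and Cldn20 cleared the lower one by 0.016 log2 units on its weakest array. CpG-rich starts occurred among genes not above background, such as Gjd2, with 41, and Ctnna2, with 38.

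**Figure D2:**
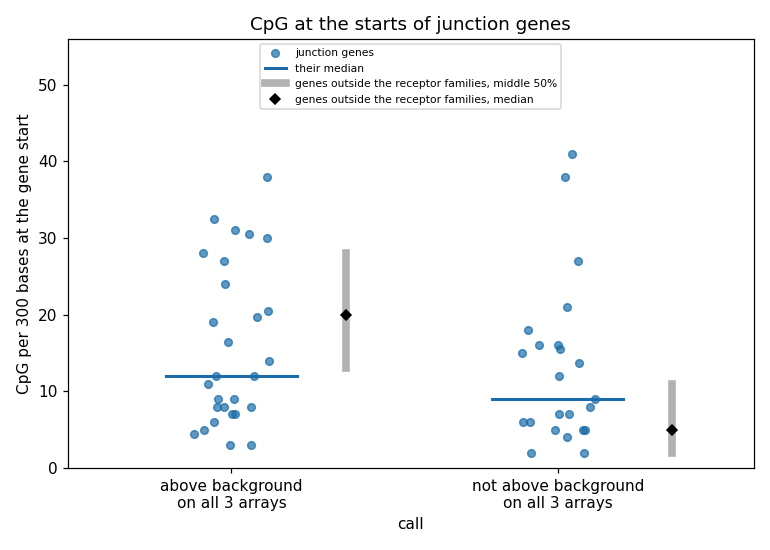
Each point is 1 of the 51 junction genes with a RefSeq start window and gives its CpG dinucleotides per 300 bases (y axis), by whether the gene was above background on all 3 arrays (x axis); the horizontal bar is the median, and the grey bar and diamond give the middle 50% and the median of genes outside the receptor families. The medians of the junction genes, 12 and 9, lie closer together than those of the other genes, 20 and 5.

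The same windows were searched for CACCTG and its reverse complement CAGGTG, a 6-base E-box on both strands that repressors of the Snail and Zeb families are known to bind in the E-cadherin promoter. Cdh1 itself was not among the 51 genes searched, nor were Cdh2, Cdh3, Cdh11, Ctnna1 and Gjc1. Of the 28 genes above background 11 held it in at least 1 window (39.3%), and of the 23 others 5 did (21.7%), against 22.3% and 24.8% of genes outside the receptor families with the same calls. By window it was found in 20 of 67 for junction genes and in 19.7% of 18236 for all measured genes. The 11 genes were Cldn3, Cldn4, Cldn7, Cldn14, Epcam, F11r, Ocln, Tjp3, Dsp, Pkp4 and Gja3. Of them 8 belong to the tight junction group, but so do most of the 28 searched genes above background. A match is a description of the letters and not a bound site. The 250 bases before the start are shown for the epithelial genes Epcam, F11r, Cldn4 and Cldn7, which hold the motif there, for Cldn3, whose match lies after the start, and for Gja1, which has none; the motif is in capitals, and these genes were picked with their values known.
Epcam (chr17:87635729-87635978, plus strand): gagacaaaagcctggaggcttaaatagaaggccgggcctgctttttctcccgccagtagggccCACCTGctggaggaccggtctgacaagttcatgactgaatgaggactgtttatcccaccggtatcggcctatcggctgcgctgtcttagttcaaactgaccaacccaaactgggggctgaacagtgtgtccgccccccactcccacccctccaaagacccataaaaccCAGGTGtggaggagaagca
F11r (chr1:171437311-171437560, plus strand): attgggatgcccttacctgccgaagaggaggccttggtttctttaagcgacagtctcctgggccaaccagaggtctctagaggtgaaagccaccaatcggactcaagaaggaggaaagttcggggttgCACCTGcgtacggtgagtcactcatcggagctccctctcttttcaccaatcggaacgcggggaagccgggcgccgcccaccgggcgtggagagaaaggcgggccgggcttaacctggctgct
Cldn4 (chr5:134946935-134947184, minus strand): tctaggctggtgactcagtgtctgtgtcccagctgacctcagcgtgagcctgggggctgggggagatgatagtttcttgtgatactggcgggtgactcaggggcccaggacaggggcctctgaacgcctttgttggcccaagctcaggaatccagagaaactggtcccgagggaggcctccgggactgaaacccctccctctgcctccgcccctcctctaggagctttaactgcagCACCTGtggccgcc
Cldn7 (chr11:69965171-69965420, plus strand): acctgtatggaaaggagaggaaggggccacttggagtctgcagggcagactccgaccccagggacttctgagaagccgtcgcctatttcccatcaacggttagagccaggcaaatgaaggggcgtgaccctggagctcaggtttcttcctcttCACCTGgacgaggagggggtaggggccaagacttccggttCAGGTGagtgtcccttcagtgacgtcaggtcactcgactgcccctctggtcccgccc
Cldn3 (chr5:134985964-134986213, plus strand): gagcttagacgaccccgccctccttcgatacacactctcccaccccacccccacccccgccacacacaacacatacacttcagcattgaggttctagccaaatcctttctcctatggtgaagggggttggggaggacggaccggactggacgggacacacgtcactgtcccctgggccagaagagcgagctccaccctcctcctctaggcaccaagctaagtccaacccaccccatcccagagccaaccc
Gja1 (chr10:56377050-56377299, plus strand): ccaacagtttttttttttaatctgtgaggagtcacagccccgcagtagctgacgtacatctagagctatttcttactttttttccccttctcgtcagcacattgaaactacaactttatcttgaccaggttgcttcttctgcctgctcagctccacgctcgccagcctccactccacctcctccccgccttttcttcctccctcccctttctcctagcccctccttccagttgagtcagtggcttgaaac
In Epcam the matches begin 187 and 19 bases before the start, in Cldn7 97 and 57, in F11r 122 and in Cldn4 14. Cldn7 has a pair of listed starts, and the one with the motif is shown.

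No junction gene passed the test for a difference between the repeats. A limma variance test, which sets each gene's variance over the repeats against the trend of all genes, called 0 of the 44 junction genes above background on at least 1 array after Benjamini-Hochberg adjustment, and 22 of all 13610 genes tested (0.162%). With limma's prior degrees of freedom taken gene by gene the count over all genes was 0, with 635 at an unadjusted p under 0.05, and without repeat 1 it was also 0, with 709. At an unadjusted p under 0.05 it listed 6 of the 44, against 5.75% of all genes tested. These 6 were Cdh3, Cdh1, Cdh6, Cdh11, Gja3 and Cldn3, of which 4 are cadherins, and their adjusted p in the limma test ran from 0.283 (Cdh3) to 0.795 (Cldn3). The median SD of the 43 genes above background was 0.136 log2 units, and that of all 12841 genes above background 0.101. Without repeat 1 these medians were 0.135 and 0.0849, without repeat 2 0.0755 and 0.0761, and without repeat 3 0.0686 and 0.0858.

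The 6 genes did not share a pattern over the repeats. In repeat 2, Cdh3 lay 0.69 log2 units below the mean of the other repeats (-0.69), Cldn3 0.42 below (-0.42) and Cdh1 0.40 below (-0.40). In the same repeat, Cdh6 lay 0.59 log2 units above the mean of the others and Cdh11 0.50 above. Gja3 differed from these in being highest in repeat 3, at 0.53 above the others. Among genes outside the 6, Cldn7 (-0.38) and Jup (-0.29) were lowest in repeat 2 and Cdh2 (0.32) was highest there, with adjusted p of 0.958 to 0.992 in the limma test. Of the 12 cadherins above background, 6 were lowest in repeat 2 (Cdh1, Cdh3, Cdh13, Cdh15, Cdh22 and Cdh23) and 3 were highest there (Cdh2, Cdh6 and Cdh11), and none of them passed the test. The genes Gja1, Tjp1, Ctnna1 and Cdh4 spanned 0.028 to 0.064 log2 units.

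**Figure D3:**
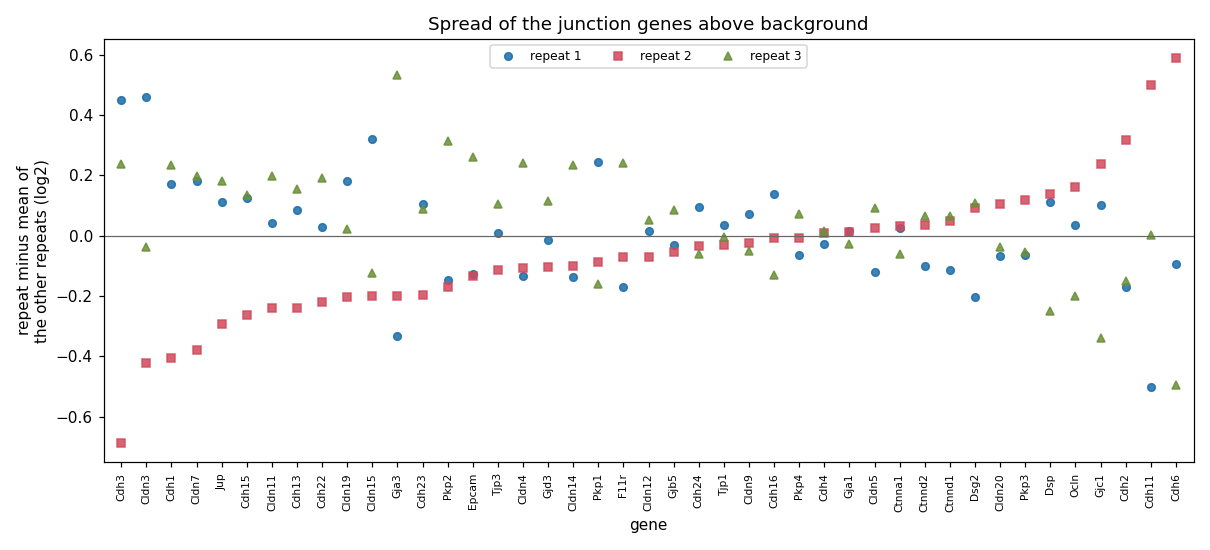
For each of the 43 junction genes above background on all 3 arrays (x axis, ordered by repeat 2), the points give each repeat minus the mean of the other repeats in log2 units (y axis). In repeat 2, Cdh3 lies at -0.69 and Cdh6 at 0.59, and Tjp1, Cdh4 and Gja1 lie near 0 in all repeats.

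Repeat 2 was the lowest for 19 of the 43 genes (44.2%) and the highest for 9 (20.9%). Of all genes above background, 34.8% were lowest and 36.9% highest in repeat 2. Repeat 3 was the highest for 23 of the 43 (53.5%), against 33.1% of all genes above background. The tight junction group was lowest in repeat 2 for 9 of its 16 genes and highest in repeat 3 for 9. Its median difference of repeat 2 from the others was -0.10 log2 units, and over all genes above background it was 0.0063. The shift in repeat 2 was not particular to this group. Of the 46 receptor genes above the cutoff on all 3 arrays, 63.0% were lowest in repeat 2, with a median difference of -0.12, and 23.9% were highest in repeat 3. Of the 16 tight junction genes, 5 exceeded the higher cutoff on all 3 arrays.

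The lists of markers of other cells were written with earlier results of these data known. Ranks and counts over the repeats in them therefore describe the chosen genes and are no independent support. Among these lists, that of fibroblasts had the highest median SD, 0.25 log2 units, against 0.095 (primitive endoderm) to 0.17 (neural) in the others. Of 16 measured fibroblast markers, 14 were above background on all 3 arrays, Lum was on none and S100a4 was on some. Among genes outside the receptor families the share was 71.6%. Above the higher cutoff on all 3 arrays lay 11 of the 16, against 42.3% of those genes. Of the 14 above background, 12 were highest in repeat 2, against 36.9% of all genes above background. Dcn was highest in repeat 1 and Pdgfra in repeat 3. The intensities of the 16 markers summed to 2066, 3195 and 2129 in repeats 1, 2 and 3. Smooth muscle actin Acta2 (7.57, 9.11 and 8.07) and the collagen cross-linking enzyme Lox (6.46, 7.88 and 6.58) passed the limma variance test, with adjusted p of 0.00807 and 0.0191. Tagln, at 6.72, 7.88 and 7.02, did not (adjusted p = 0.0569), though limma called it after median centring (adjusted p = 0.0293). Acta2 and Lox were not called by limma with the prior degrees of freedom taken gene by gene (adjusted p = 0.997 for both), with no trend in the prior (0.193 for both), without repeat 1 (0.297 for Acta2, 0.289 for Lox) or without repeat 2 (0.190 and 0.997), nor was Lox with a prior not fitted robustly (0.0504). Of the 43 junction genes above background, 9 (20.9%) were highest in repeat 2, against 36.9% of all genes above background. The 9, of which Ctnna1 and Dsp were barely higher there than in repeat 1, were Cdh2, Cdh6, Cdh11, Ctnna1, Dsp, Pkp3, Ocln, Cldn20 and Gjc1. The part of fibroblasts in the values of these genes was not tested. In bulk RNA, fewer cells of a type and less RNA per cell cannot be told apart.

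Genes that regulate the epithelial and mesenchymal states were read from lists written with earlier results of these data known. Of 9 genes of the epithelial to mesenchymal transition, all were above background, against 71.6% of genes outside the receptor families. Above the higher cutoff on all 3 arrays lay 6 of the 9, against 42.3% of those genes. In repeat 2, 8 of the 9 were highest. Of all genes above background 36.9% were highest in that repeat, and in the ES cell list 7 of 11 were. Snai1, a repressor of E-cadherin, read 6.65, 6.76 and 6.29, Snai3 5.18, 5.71 and 5.44, and Twist1 6.32, 6.61 and 6.18. Of 14 epithelial regulators 6 exceeded the higher cutoff on all 3 arrays, and 12 (85.7%) were above background on all 3. Of these 12, 10 were lowest in repeat 2, against 34.8% of all genes above background. Esrp1, a splicing factor of epithelia, read 7.86, 7.46 and 7.87, Rab25 5.69, 5.44 and 5.93, and the protease gene Prss8 5.16, 4.72 and 5.12. Snai3, Rab25 and Prss8 exceeded the higher cutoff on no array. The limma test called no gene of either list, and 1 had an unadjusted p under 0.05.

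Of 27 measured partners of the junctions, 26 were above background on all 3 arrays, and the pannexin gene Panx3 was on none. Among genes outside the receptor families the share was 71.6%. Above the higher cutoff on all 3 arrays lay 15 of the 27, against 42.3% of those genes. Of the 26, 10 exceeded the higher cutoff on no array. Jam2, a junctional adhesion molecule, read 10.08, 10.33 and 9.88, the actin linker Vcl 8.99, 9.19 and 8.67, and Nectin4, a cell adhesion receptor, 4.93, 4.69 and 5.29. These 3 had the largest SD of the list, and none of the list was called. As for other lineages, 7 of 8 endothelial markers were above background and 1 above the higher cutoff on all 3 arrays, with Pecam1, which ES cells are known to express, at 7.19, 7.42 and 6.95, Cd34 at 5.97, 6.27 and 5.86 and Tek at 6.09, 5.50 and 6.08. Of 8 trophoblast markers 5 were above background, with Eomes at 6.08, 6.36 and 6.39, Krt7 at 5.96, 5.64 and 6.005 and Gata3 at 4.79, 4.99 and 4.53. Of 8 primitive endoderm markers 4 were, with Gata6 at 5.79, 6.12 and 5.90 and Gata4 at 5.93, 6.11 and 6.13, while Ttr (3.57, 3.31 and 3.63) was on no array. Of 7 neural markers 5 were, with Nes at 6.55, 6.96 and 6.44, Map2 at 5.77, 5.64 and 6.01 and Neurod1, on some arrays only, at 4.88, 4.33 and 5.25. Above the higher cutoff on all 3 arrays lay 1 of 8 trophoblast, 0 of 8 primitive endoderm and 3 of 7 neural markers. Their shares above background were 62.5%, 50% and 71.4%, against 71.6% of genes outside the receptor families. In the ES cell list itself the least even genes were Zfp42 (11.24, 11.34 and 10.75), Tfcp2l1 (9.06, 9.55 and 9.06) and Nanog (10.89, 11.24 and 10.88).

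**Figure D4:**
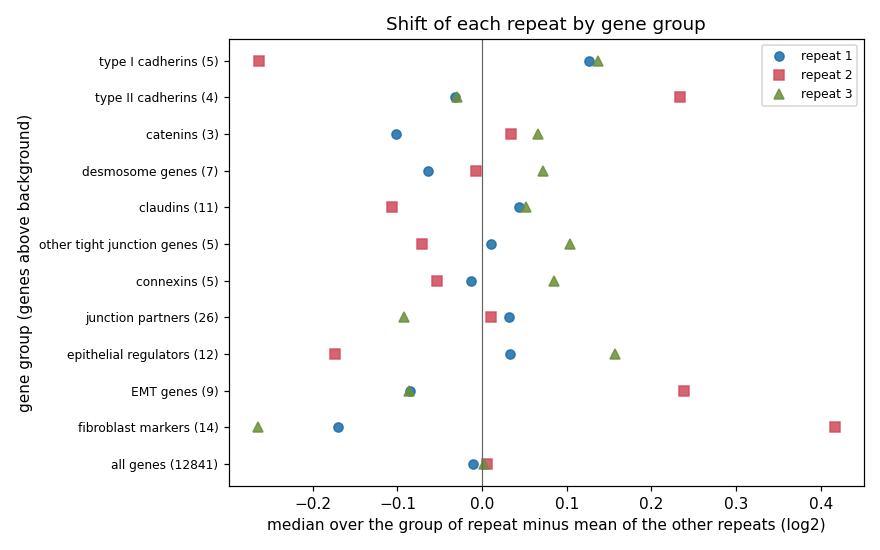
For each gene group (y axis, with its number of genes above background), the points give the median over the group of each repeat minus the mean of the other repeats, in log2 units (x axis). In repeat 2 the type I cadherins lie at -0.26 and the type II cadherins at 0.23, medians of few genes that differ in sign within each type (Cdh2 at 0.32 in type I, Cdh22 at -0.22 in type II); the epithelial regulators lie at -0.17, the fibroblast markers at 0.42 and all genes near 0.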

How the data were processed

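Total RNA of 3 biological repeats of R1 ES cells was read on 1 array each. The authors deposited linear intensities, 1 per probe set. Per the submitters' processing notes GCOS 1.4 was used; how background was corrected and arrays normalized is not given in the sources used here. Intensities were taken to log2 (lower limit 1, which changed no value) with no further normalization. Of 26730 probe sets, 20764 had 1 gene symbol and were used, and probe sets of the same gene were averaged. All 78 members matched RefSeq by gene identifier under the same symbol. Some genes of these families are not reported here. Members and lists were chosen with earlier results of these data known.

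Calls used the 95th percentile of the receptor genes. For the variance test (limma 3.58.1, R 4.3.3), an intercept was fitted per gene, and the variance over the trended, robust prior was set against F with 2 and 9.89 degrees of freedom, Benjamini-Hochberg adjusted at 0.05 over all genes that exceeded background on any array. The prior degrees of freedom shared by all genes were used. This was chosen after seeing the data. With limma's gene-by-gene robust values, tried first, 0 genes were called and 0 of 200 changes were recovered in simulated data. There the shared value recovered 81 of 100 shifts of 1 log2 unit and 100 of 100 of 1.5, with 4 false calls among 13610 genes. The simulated variances were drawn from the prior with the shared value, so the simulation favoured that value. It cannot decide between the choices, nor give the rate of false calls in the real data. Nothing says that the repeats came from separate cultures, so the p-values of the variance test measure only the spread between these samples. The number of arrays limits the precision.

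Every member is named with its call. Array values are given for a fixed set of members, for members called on some arrays, for the largest SD of each junction group, and for the 3 largest SDs of each other list. Start windows come from RefSeq (GRCm38.p6), are 5′ to 3′ and were matched by gene identifier; the values name no build. Tables were made in Python 3.11.15 (pandas 2.3.3). Alternatives were stricter cutoffs (99th percentile, other silent families, 1 log2 unit more), 2 of 3 arrays, quantile normalization, median centring, the highest probe set, a lower limit of 16, all genes in the fit, a prior fitted with no trend or not robustly, and 1 repeat left out at a time.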

Additional observations from a re-analysis of the deposited data

How the results depend on the processing

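The count of 43 junction genes above background was the same under quantile normalization, median centring, the highest probe set, the lower limit of 16, 2 of 3 arrays and without any 1 repeat, and it was 30 at the 99th percentile. It was 25 with the cutoff raised by 1 log2 unit and 18 with the other silent families. In these 3 stricter settings (99th percentile, raised cutoff, other silent families) cadherins numbered 7, 5 and 3 in place of 12, and tight junction genes 10, 8 and 5 in place of 16; connexins numbered 3 in place of 5 with the other silent families. The variance test called 0 junction genes under every alternative run. Over all genes it called 42 after median centring, 1 with no trend in the prior, 10 with a prior not fitted robustly and 13 after quantile normalization, 0 with gene-by-gene prior degrees of freedom (added after seeing the data), and 0 to 34 when a repeat was left out, in place of 22. The median SD of the junction genes was 0.0686 to 0.135 when a repeat was left out. The difference of repeat 2 from the others was recomputed for 14 genes. Of these, Cldn4 (-0.23 to 0.019), Gja3 (-0.49 to 0.089) and Gja1 (-0.0012 to 0.027) changed sign when repeat 3 was left out. That difference is then repeat 2 minus repeat 1 alone. Gja1 also changed sign after quantile normalization (-0.034), and the cause of that change was not tested. No paired analysis was possible because the arrays form 1 group. The cutoffs limit detection: a junction gene below them was not shown to be silent, and with 3 arrays a modest difference between repeats cannot be told from their spread.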

Other observations

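Probe sets annotated with several symbols were outside all counts, and 4 of them carry the symbol of a junction gene. Of these, 3 list Cdh11 together with 6820431F20Rik and 2610005L07Rik and averaged log2 10.49 ± 0.038, 10.17 ± 0.099 and 10.63 ± 0.070 (SD, n = 3). Which of the listed genes these 3 probe sets measure was not settled, so their levels are not taken as those of Cdh11. The fourth lists Dzip1 with Cldn10 and averaged 5.30 ± 0.17, above the receptor cutoffs, while both probe sets that list Cldn10 alone were below them on all 3 arrays.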
